A study of Mus musculus with 4 samples.

Results

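Regions of the mouse colon genome that were wide but only weakly covered in a map of the transcription factor Fos are described here. The map was a single list of 178981 summits, the local maxima of coverage, and summits with the same start and end belonged to 108406 regions. A region was counted as wide and weak when it spanned at least 1500 bp, held fewer than 10 summits and had no summit with a fold enrichment of 12 or more. That rule kept 792 regions, 0.731% of all, with 3117 summits. The regions were thus chosen by width, number of summits and fold, and values of these below are a description with no test.

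Fos was profiled by CUT&Tag, in which an antibody against a protein brings in a Tn5 transposase, which fragments nearby DNA and adds sequencing adapters. The 4 libraries came from the colon of mice of genotype WT with the cell type given as colonic epithelium, 2 from healthy controls and 2 from mice recovered from colitis, all with the same batch label. The recovered mice had drunk 1 to 1.5% dextran sulfate sodium (DSS), which injures the colon lining, for 3 rounds of 7 days separated by 10 days on water, and tissue was taken 22 days after DSS ended. Mucosa was scraped off after 30 min in EDTA and was not sorted, so other mucosal cells could be present. The list had no column per library, so healthy and recovered tissue could not be compared, no value has a replicate error, and no test across samples was possible. The depth of each library is unknown. No library with an untargeted antibody was used here, so cuts made by Tn5 in open chromatin without Fos were not measured.

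Fos is a leucine zipper protein that pairs with Jun proteins to form AP-1, a factor induced within minutes by growth signals and stress, which binds the palindrome TGACTCA and its near relatives, mostly at enhancers. CpG islands are stretches of DNA that keep many CG dinucleotides. They hold the starts of most housekeeping and many developmental genes. Developmental regulators such as Hox, T-box, Pitx and forkhead genes often lie in broad CpG-rich domains.

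Of the wide weak regions, 149 held the annotated start of at least 1 protein-coding gene of the RefSeq promoter table. The 250 bases upstream of 4 of these starts are shown first, to show how widely CG content varied in the set. The sequences run 5′ to 3′ toward the gene, are RefSeq sequences of GRCm38.p6, the assembly named mm10, and have every CG dinucleotide in capitals. Ppp1r3d (chr2:178414464-178414713, minus strand) encodes a subunit that directs a phosphatase to glycogen, and it shared with Fhl4 the highest number of CG dinucleotides, 41, among the 81 upstream sequences written out. Foxl2 (chr9:98955357-98955606, plus strand) encodes a forkhead factor of the ovary and held 22. Hoxa11 (chr6:52245811-52246060, minus strand), a homeobox gene of limb and urogenital patterning, held 13. Gm33049 (chr15:88854191-88854440, plus strand) is a predicted gene in the ninth widest region and held 1.
Ppp1r3d: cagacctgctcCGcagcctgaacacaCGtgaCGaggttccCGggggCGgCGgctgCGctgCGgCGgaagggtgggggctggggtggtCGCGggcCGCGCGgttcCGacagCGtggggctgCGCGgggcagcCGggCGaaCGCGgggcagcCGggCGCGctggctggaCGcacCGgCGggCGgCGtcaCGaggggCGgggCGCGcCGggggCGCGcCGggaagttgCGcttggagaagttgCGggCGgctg
Foxl2: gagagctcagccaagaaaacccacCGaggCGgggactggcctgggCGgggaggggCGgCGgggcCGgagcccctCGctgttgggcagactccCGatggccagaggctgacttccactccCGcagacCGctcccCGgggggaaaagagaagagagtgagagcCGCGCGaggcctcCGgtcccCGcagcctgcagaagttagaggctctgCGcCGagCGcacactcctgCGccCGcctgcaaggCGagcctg
Hoxa11: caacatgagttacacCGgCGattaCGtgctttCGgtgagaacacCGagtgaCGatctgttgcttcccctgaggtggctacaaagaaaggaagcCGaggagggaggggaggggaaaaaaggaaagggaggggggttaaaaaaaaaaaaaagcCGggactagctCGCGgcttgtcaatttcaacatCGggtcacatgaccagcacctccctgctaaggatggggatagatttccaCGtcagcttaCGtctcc
Gm33049: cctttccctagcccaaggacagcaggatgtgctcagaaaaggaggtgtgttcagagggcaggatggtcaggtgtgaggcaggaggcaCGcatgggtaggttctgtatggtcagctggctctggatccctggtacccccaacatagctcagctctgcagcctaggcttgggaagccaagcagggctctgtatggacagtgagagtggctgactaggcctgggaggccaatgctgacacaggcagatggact

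The consensus AP-1 site was seen in the same upstream stretch of 2 of the 81 sequences, and both are shown with the site in capitals. Necab2 (chr8:119446469-119446718, plus strand) encodes a neuronal calcium-binding protein. Its site is centred 166 bases before the start and 32 bp from the strongest summit of its region. Shc4 (chr2:125724149-125724398, minus strand) encodes an adaptor of receptor tyrosine kinases. Its site is centred 128 bases before the start and 57 bp from the strongest summit. The 2 regions were weak within the set, with a highest fold of 5.53 at Necab2 and 5.77 at Shc4.
Necab2: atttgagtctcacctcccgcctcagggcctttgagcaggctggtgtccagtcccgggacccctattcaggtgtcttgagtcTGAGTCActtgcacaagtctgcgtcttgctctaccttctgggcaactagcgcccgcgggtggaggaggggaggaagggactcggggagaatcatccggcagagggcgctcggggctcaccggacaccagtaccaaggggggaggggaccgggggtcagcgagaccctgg
Shc4: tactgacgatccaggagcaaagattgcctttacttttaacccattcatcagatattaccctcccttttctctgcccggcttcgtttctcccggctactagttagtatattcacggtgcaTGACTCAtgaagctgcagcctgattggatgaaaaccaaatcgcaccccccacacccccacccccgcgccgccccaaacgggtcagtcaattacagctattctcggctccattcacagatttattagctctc

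Coverage in these regions was low, and the limit on fold also bounds how far the summits of 1 region can differ. The deposited fold at each summit is the pileup, the number of fragments over that base, over a background that was the same everywhere, and it gave back the pileup in whole fragments. The median wide weak region spanned 1749.5 bp (quartiles 1597 to 2023) and held 4 summits, with a highest fold of 8.90, or 36 fragments. Its strongest summit was 2.10 times its weakest over the 788 regions with at least 2 summits, against 8.93 times in the 11710 wide stronger regions, those of the same width limit and summit limit with a fold of 12 or more. Neighbouring summits lay 404 bp apart at the median, against 474 bp in the wide stronger regions. The strongest summit sat 22.3% of the width away from the midpoint, against 15.9% in the wide stronger regions. With so few fragments a rank among the summits of 1 region is uncertain: 36 fragments have an exact 95% Poisson interval of 25.2 to 49.8.

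Most of the regions had 3 or 4 summits, 228 and 254 of them. Only 4 had a single summit, in Myo5c, Cdhr2, Aopep and near Gm39821, and 3 had 9. The limits cut through a continuum. The highest fold inside was 11.8, reached by 43 regions, and the lowest outside was 12.03, in 39 regions. A further 251 regions of 1400 to 1499 bp met the other criteria, the widest of them at 1499 bp, and 7 regions were wide and weak with 10 or more summits. Of those 7, 3 lay in Mroh2a or Hjurp and the others in or near Ppp2cb, Oit1, Ccny and Nkx2-3. The wide weak set is 6.20% of all 12781 wide regions and 1.11% of the 71061 regions of any width and summit number with a highest fold below 12.

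**Figure D1:**
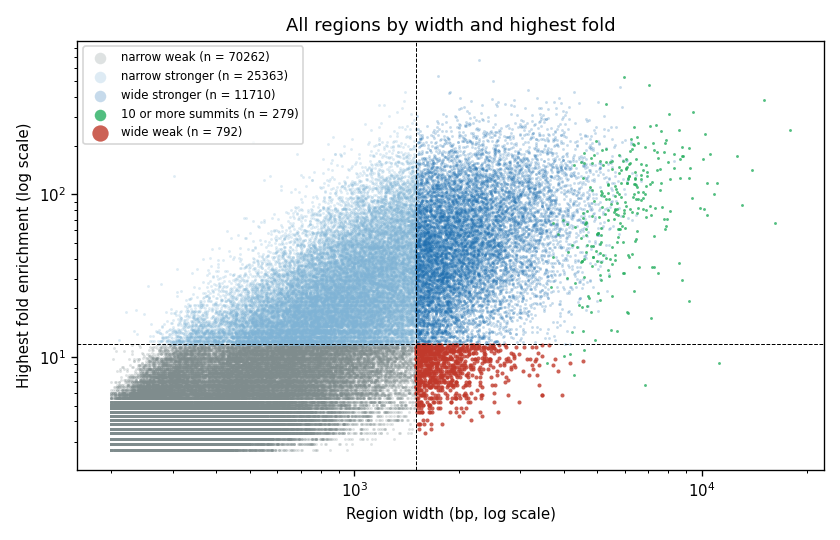
Each point is 1 of the 108406 regions, by width in bp and highest fold enrichment, both on log axes, with dashed lines at 1500 bp and a fold of 12. The 792 wide weak regions, in red, form the lower right corner of the cloud, between folds of 3.37 and 11.8.

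The highest folds inside the set, all 11.8 or 48 fragments (95% Poisson interval 35.4 to 63.6), included Neat1, the long noncoding RNA that builds nuclear paraspeckles, and Rreb1, a zinc finger factor downstream of Ras. The same value was found at Haspin, a mitotic histone kinase, in a region 3027 bp from Pdlim4, an actin-associated LIM protein, and in a region 16992 bp from Reg4, a secreted lectin of the gut. Just outside, at 12.03 or 49 fragments, were regions in Cracdl, Armc9, Dlx2 and Plk3 and a region 28353 bp from Frmd8. The lowest values in the set were 3.37 in Rps6ka1, with 13 fragments, and 3.61 near Smok2a and Trem1, with 14.

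Wide weak regions lay at gene boundaries more often than narrow weak ones and less often than wide stronger ones. The strongest summit was within 1000 bp of either end of a protein-coding gene in 167 of the 792, or 21.1% (95% Wilson interval 18.4 to 24.1). The share was 13.2% over all regions, 7.88% over the 70262 narrow weak regions of under 1500 bp, and 33.7% over the wide stronger regions. The difference was 13.2 percentage points (95% Newcombe interval 10.5 to 16.2) from the narrow weak and -12.6 points (-15.4 to -9.52) from the wide stronger regions. These intervals cover counting error over regions of 1 list only, and not the spread between animals. The wide weak share was the higher one in each of 4 fold classes. These classes start at a fold of 3 and leave out the narrow weak regions below it. From a fold of 3 to below 6 the share was 15.5% of the wide weak (16 of 103; 9.79 to 23.8) against 7.39% of the narrow weak regions. From 10 to 12 it was 24.1% (62 of 257; 19.3 to 29.7) against 11.3%. The share also rose gradually with width across the 1500 bp limit. Among weak regions it was 6.58% below 500 bp, 9.95% from 500 to 999 bp and 17.4% (16.1 to 18.9) from 1000 to 1499 bp. It was 19.9% (16.9 to 23.4) in the wide weak regions of under 2000 bp and 24.2% (18.9 to 30.3) in the wider ones.

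Gene starts gave the same order. The strongest summit was within 1000 bp of a start in 134 regions, 16.9% (14.5 to 19.7), against 9.87% of all regions, 4.57% of the narrow weak and 29.5% of the wide stronger ones. A start lay inside the region in 18.8%, against 8.79% over all regions. That share grows with width by construction, and the 32.0% of the wide stronger regions is the comparison at a like width limit. Gene interiors held 52.7% of the wide weak regions (49.2 to 56.1), a difference of 1.12 points from the narrow weak regions (-2.38 to 4.60). Intergenic positions held 26.3%, which was -14.3 points from the narrow weak regions (-17.3 to -11.1) and -1.25 points from the wide stronger ones (-4.31 to 2.02). The median distance to the nearest gene boundary was 5446 bp, against 15141 bp for narrow weak and 5136 bp for wide stronger regions.

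Wide weak regions were also near stronger ones. A region with a fold of 12 or more lay within 10 kb of 564 of them, 71.2% (68.0 to 74.3), against 59.9% of all regions and 56.3% of the narrow weak ones. The difference was 14.9 points (11.7 to 17.99) from the narrow weak and -2.80 points (-6.15 to 0.347) from the wide stronger regions. The median distance to that neighbour was 3679 bp, against 7365 bp for the narrow weak regions. Another wide weak region lay within 10 kb of 69 of them, or 8.71%, against 2.81% of narrow weak and 4.34% of wide stronger regions.

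**Figure D2:**
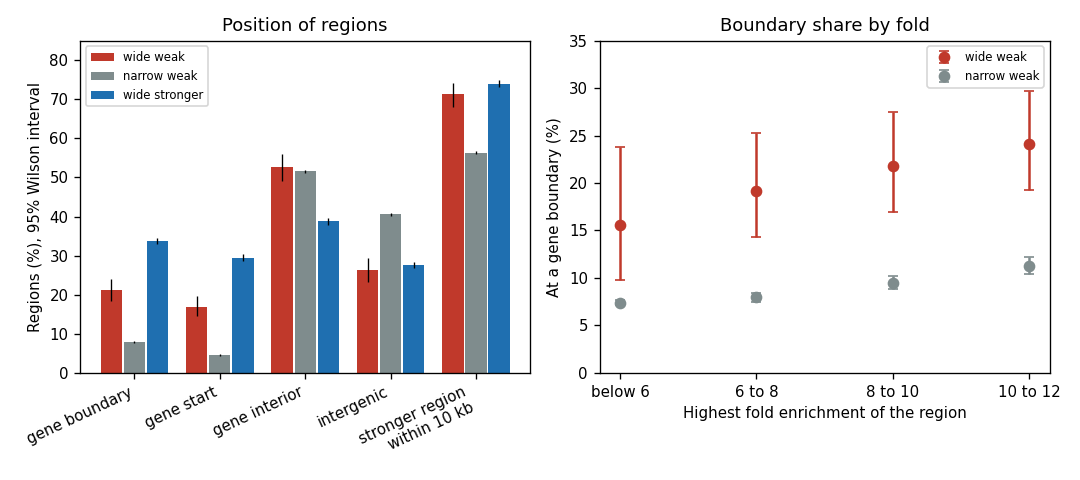
The left panel gives the percentage of wide weak, narrow weak and wide stronger regions in each position, with 95% Wilson intervals, and the right panel the percentage at a gene boundary by the region's highest fold. The wide weak regions stand between the other classes at boundaries (21.1, 7.88 and 33.7%) and above the narrow weak ones in each of the fold classes. The class labelled below 6 starts at a fold of 3.

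Where a start lay inside a wide weak region, the coverage reached farther into the gene than ahead of it. Over the 149 regions the median extent was 777 bp upstream and 1171 bp downstream of the start, against 946 and 1131 bp in the 3746 wide stronger regions. The strongest summit was 17 bp downstream at the median (quartiles -198 to 292), against -68 bp, that is upstream, in the wide stronger regions. It was downstream in 51.7% (43.7 to 59.6) of the wide weak and 36.9% (35.4 to 38.5) of the wide stronger regions. In 30 of the 149 it lay over 500 bp into the gene, 20.1% (14.5 to 27.3) against 9.18% (8.30 to 10.2). Over 500 bp upstream it lay in 16 of the 149, 10.7% (6.72 to 16.7) against 7.77% (6.95 to 8.67). Summits of a wide weak region differ little in fold, so which is strongest is uncertain. The part of that in these shares was not tested.

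Most promoters in wide weak regions were rich in CG dinucleotides. Over the 176 promoters of 156 genes, each 300 bases long, the median GC content was 63.3% and the observed over expected ratio of CG was 0.786 (quartiles 0.581 to 0.911). A ratio of 0.6 or more was found in 72.7% (65.7 to 78.8). The corresponding shares were 78.7% in wide stronger regions, 55.7% in narrow weak regions, 15.8% of promoters in no region and 48.1% of all 21045 promoters of the table. The sequences printed above had from 41 CG dinucleotides at Ppp1r3d to 1 at Gm33049, and the lowest of the 81, at 4931408C20Rik, had 0.

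Short motifs were counted on both strands of the same 300-base promoters. The AP-1 site (TGACTCA or TGAGTCA, which are the same site read on opposite strands) was present in 6 of the 176, 3.41% (1.57 to 7.24), against 4.69% of all promoters. The cyclic AMP response element TGACGTCA was present in 2.27% against 2.26%. The GC box GGGCGG, bound by Sp and Klf proteins, was in 64.8% against 46.7%, and the CCAAT box in 30.7% against 38.5%. TATAAA was in 5.68% against 12.7%. In wide stronger and narrow weak regions the AP-1 site was in 4.25% and 3.79%, the GC box in 73.2% and 52.9%. There the CCAAT box was in 38.5% and 32.3%, and TATAAA in 5.95% and 9.09%. Promoters in no region had the GC box in 21.8% and TATAAA in 20.1%. For the GC box and TATAAA the gap to all promoters is thus not particular to the wide weak regions. The lower CCAAT share was shared with the narrow weak regions, whose 32.3% (30.3 to 34.4) lies within the wide weak interval of 24.3 to 37.8. A GC box holds a CG, so its share moves with the CG content given above. A match says only that the letters are in the window.

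**Figure D3:**
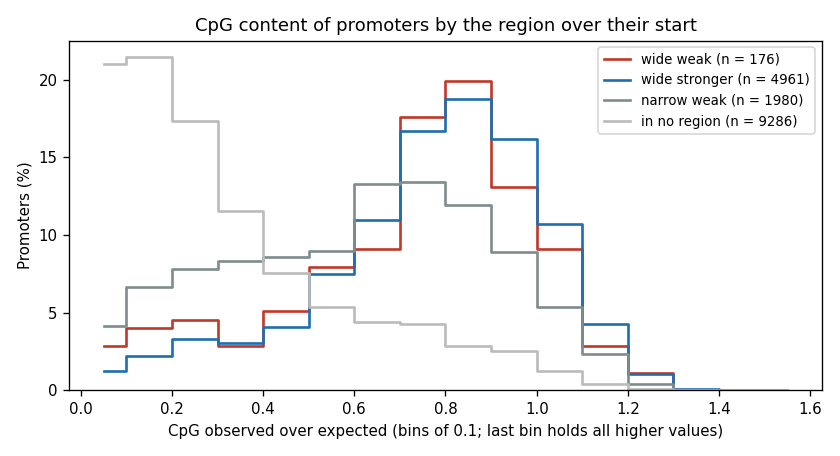
Lines give the percentage of promoters in bins of 0.1 of the observed over expected CG ratio, by the region that covers the gene start. The 176 promoters in wide weak regions and the 4961 in wide stronger regions both peak between 0.8 and 0.9, and the 9286 promoters in no region lie mostly below 0.4.

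Of the 10 widest regions, 3 lay at the developmental regulators Dmrta2, Hoxa9 and Hoxa10, 2 in Mroh2a, 3 in a stretch of chromosome 4 without coding genes, 1 at Neat1 and 1 at Gm33049. The widest was at Dmrta2 (chr4:109979818-109984359), a doublesex-related factor of forebrain patterning, with 4542 bp, 8 summits and a highest fold of 9.38, or 38 fragments. Both flanking regions were wide and weak as well, so that the 3 regions covered 9943 bp of 10730 bp with folds of 2.89 to 9.38 at their 18 summits. Hoxa9 (chr6:52223650-52227433) and Hoxa10 (chr6:52234692-52238411), homeobox genes of the posterior body axis, had regions of 3784 and 3720 bp with folds of 9.62 and 8.90. Neat1 (chr19:5828843-5832462) had 3620 bp and 8 summits, and Gm33049 (chr15:88852914-88856379) 3466 bp and 6 summits. A region of 4165 bp near Neat1 (chr19:5822161-5826325) had a fold of 12.03, which put it just outside the limit.

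Some of the regions lay close together. Within 20 kb of each other, 99 of the 792 (12.5%) formed 40 groups, and 4 groups held 5 each. At Tbx2, a T-box repressor of organ patterning, 5 regions covered 11773 of 13914 bp, with a single narrow weak region between them and no stronger one. Their highest folds ran from 3.85 to 9.62. In the Hoxa cluster 5 regions covered 13480 bp, from Hoxa9 to a region 4225 bp outside Hoxa13. They were interleaved with 4 wide stronger regions whose folds were 15.2 to 25.7. A region of 11 summits over Hoxa13, with a fold of 18.8, and a narrow region with a fold of 12.3 also lay among them. At Mroh2a, 5 regions of 14497 bp in all had weak regions as their nearest neighbours, and the nearest region with a fold of 12 or more lay 14791 to 21229 bp away. The highest summit of the locus, at chr1:88218708-88221834 over the common end of the Ugt1a genes, reached a fold of 275. Weak regions of 17 and 25 summits, with folds of 6.73 and 9.14, lay on either side of the 5.

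The remaining group of 5 lay in no protein-coding gene. It stood near the first mapped bases of chromosome 4 (chr4:3050141-3086460), where 5 regions of 15186 bp in all had folds of 4.57 to 5.77. The nearest coding gene was Vmn1r2, a pheromone receptor, 119561 bp from the first of them. Repeats were not filtered here, and the treatment of reads that map to several places is not given in the sources used here.

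Groups of 3 lay at Gata4, a factor of heart and gut, and at Pitx1, a factor of hindlimb patterning. The 3 regions in Gata4 had folds of 6.98, 5.77 and 9.62, and the 3 in Pitx1 had 5.29, 8.42 and 7.46. Between those in Gata4 lay a narrower region of 1281 bp with a fold of 19.7. Further groups of 3 were at Dmrta2, at Smok2a and Smok2b, which are related kinase copies whose reads may not be told apart, near Ccny, and at Adcy6.

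**Figure D4:**
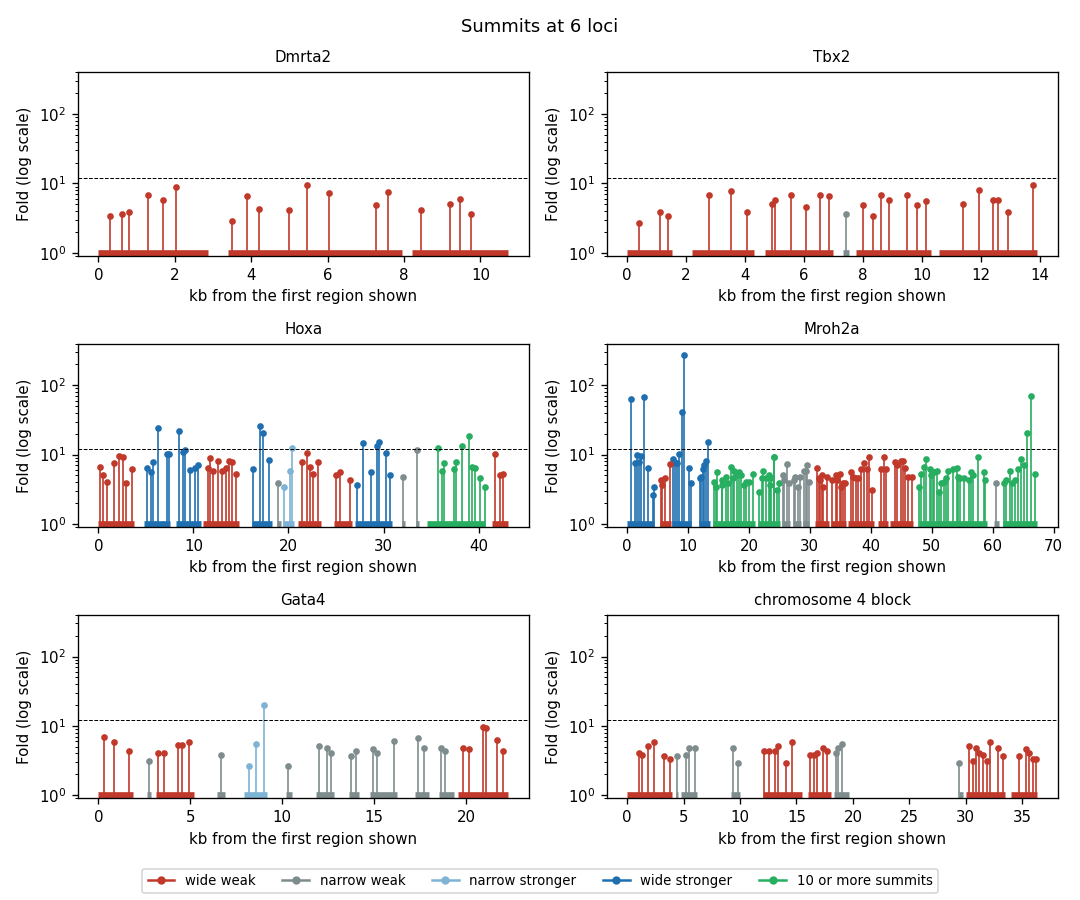
Each panel shows 1 locus, with regions as bars along the axis in kb from the first region and summits as stems to their fold on a log axis, and the dashed line at a fold of 12. Dmrta2 and Tbx2 hold wide weak regions and, at Tbx2, 1 narrow weak one, with no summit above 9.62. The Hoxa, Mroh2a and Gata4 panels also hold summits above the line.

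By the number of regions whose strongest summit lay in the gene or within 1000 bp of it, Mroh2a led with 5, followed by Tbx2 with 4. Gata4, Itpk1, Lrig1, Trim2 and Pitx1 had 3 each. Itpk1 is an inositol phosphate kinase, and its regions had folds of 8.18, 5.29 and 5.53. Lrig1, a brake on EGF receptor signalling that marks intestinal stem cells, had folds of 10.8, 6.73 and 9.86. Trim2, a ubiquitin ligase, had folds of 4.57, 10.6 and 11.8. Dmrta2, Smad3 and Lrp5 had 2 each. Smad3, which carries TGF-beta signals to the nucleus, had regions of 2158 and 2894 bp, and Lrp5, a Wnt co-receptor, of 2299 and 2471 bp. In all 573 protein-coding genes had at least 1 region and 34 had at least 2.

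Gene lists were read against all 21631 protein-coding genes, of which 1.29% had a wide weak region at a boundary and 8.43% had one within 50 kb. For these counts over genes, any base of the region within 1000 bp of either gene end sufficed, wherever the strongest summit lay. The counts and distances to a gene given below do not tell its start from its other end. Windows of clustered genes overlap, so 1 region can serve several genes of a list. Regulators and junction genes that define the intestinal epithelium had one within 50 kb in 12 of 23 (52.2%), colonocyte genes in 6 of 18, stem cell and Wnt genes in 5 of 17 and goblet cell genes in 4 of 14. Boundary counts in those lists were 1, 2, 0 and 0. The 50 kb are added to the gene span, so the window is wider for longer genes. The median gene length was 15149, 25827.5, 95770 and 11248.5 bp in the same order, against 17329 bp for all coding genes. The part of gene length in the shares within 50 kb was not tested. The lists of T, B and myeloid cells, fibroblasts, smooth muscle, endothelium and enteric nerves together had 6 of 101 genes within 50 kb and 1 at a boundary. Any region of any kind lay at a boundary of 63.3% of all coding genes, of 23 of 23 epithelial identity genes and of 40 of those 101 genes, and the part of that in the difference between lists was not tested.

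Read as a share of the regions near each list, which allows for how many regions a list has, the order was partly different. Near Hox genes 10 of 203 regions were wide and weak, 4.93% (2.70 to 8.83), against 0.731% of all regions. Near developmental factors of other tissues it was 8 of 258, 3.10% (1.58 to 5.998), near epithelial identity genes 14 of 515, 2.72% (1.63 to 4.51), and near colonocyte genes 9 of 355, 2.54% (1.34 to 4.75). Near housekeeping genes it was 3 of 303, 0.990% (0.337 to 2.87), and near genes of injury and fetal-like epithelium 2 of 370, 0.541% (0.148 to 1.95). Near interferon and antigen presentation genes it was 0 of 196, with an upper bound of 1.92%. Wide stronger regions were 10.8% of all regions. They were 13.3% near Hox genes, 7.36% near developmental factors, 19.4% near epithelial identity genes and 14.1% near colonocyte genes. Near housekeeping, injury and interferon genes they were 17.8%, 12.7% and 15.8%. In each of these lists but the developmental factors, wide regions of higher fold were thus also a larger share than over all regions.

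**Figure D5:**
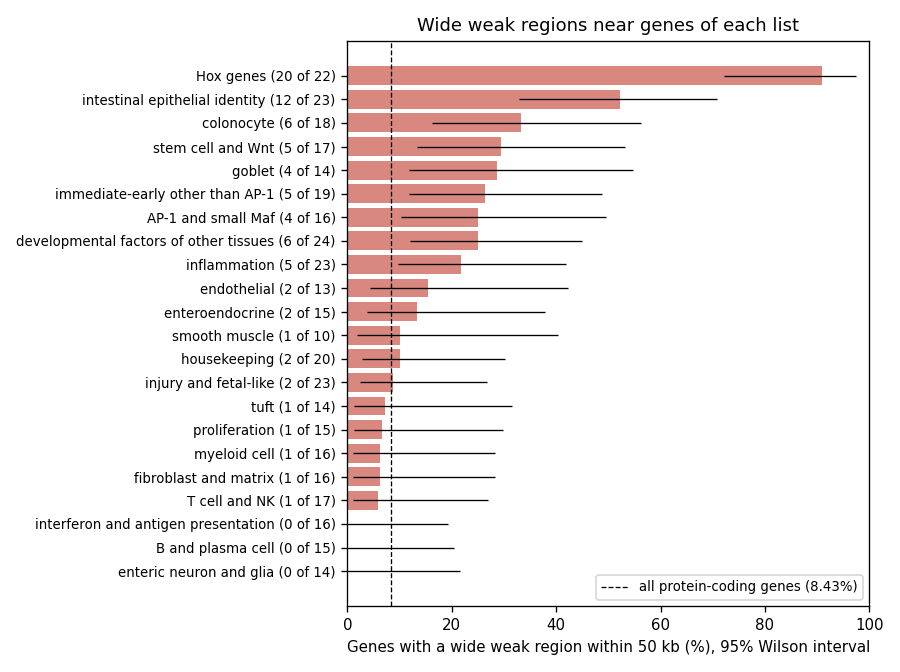
Bars give the percentage of genes in each of the 22 lists with a wide weak region within 50 kb, with 95% Wilson intervals, and the dashed line the 8.43% of all protein-coding genes. The Hox list (20 of 22 genes, sharing 10 regions) and the epithelial identity list (12 of 23) stand highest. The lists of immune cells, fibroblasts, smooth muscle and enteric nerves lie near or below the line. The endothelial list is above it at 2 of 13 genes, 15.4% (4.33 to 42.2).

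Among the 14 regions near epithelial identity genes, 9 lay inside or touched the gene. Foxa1, a pioneer factor of endoderm, had a region of 3316 bp (chr12:57541253-57544568) with 7 summits and a fold of 9.38, and it was the only gene of the list with a region reaching within 1000 bp of a gene end, though the strongest summit lay in the interior. Ehf, an epithelial ETS factor, had 3353 bp with a fold of 7.70. Cdx2, the homeobox gene that sets intestinal fate, had 2736 bp with a fold of 11.5, 1370 bp from the gene. Hnf4a, a nuclear receptor of enterocytes, had 2 regions with folds of 4.81 and 7.22. Cdh1, which encodes E-cadherin, had 2224 bp with a fold of 11.1, and Epcam, another adhesion protein of epithelia, 1979 bp with 10.1. Klf5, a factor of crypt proliferation, had a region inside the gene with a fold of 6.98.

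Genes of the differentiated lineages followed. Ceacam1, an adhesion protein of the colonocyte surface, had 1545 bp with a fold of 11.1, 844 bp from the gene. Muc13, a membrane mucin, had 2180 bp inside the gene with a fold of 7.70. Muc2, the secreted mucin of goblet cells, had 2 regions inside with folds of 9.14 and 8.18, and Tff3, the trefoil peptide secreted with it, had a fold of 8.66 at 1993 bp. Spdef, which drives goblet maturation, had 7.94 at 6357 bp. Of the stem cell genes, Ephb2 had neighbouring regions with folds of 11.5 and 8.90, and Sox9 and Tcf7l2 had regions inside the gene with 11.3 and 6.73.

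Genes of the AP-1 family and other immediate-early genes had one of these regions within 50 kb in 4 of 16 and 5 of 19, against 8.43% of all coding genes. As a share of the regions near each list, they were 4 of 314, 1.27% (0.496 to 3.23), and 6 of 284, 2.11% (0.972 to 4.53). Over all regions the share was 0.731%, which the interval of the AP-1 list covers. Wide stronger regions were 23.2% of the regions near the AP-1 list and 17.6% near the other, against 10.8% of all regions. In the AP-1 list, which includes small Maf genes, Fosb was the only one with a region reaching within 1000 bp of a gene end. The regions of Fosl1, Batf2 and Mafg lay 16612, 42272 and 42693 bp from the gene. Those of Fosl1 and Batf2 had their strongest summit in Efemp2 and Snx15. The Fosb region (chr7:19299914-19302413) had 2500 bp, 6 summits and a fold of 8.66, or 35 fragments (24.4 to 48.7), 283 bp from the gene. Of the 19 other immediate-early genes 3 had a region reaching within 1000 bp of a gene end, 15.8% against 1.29% of all coding genes. A region of any kind lay there in 18 of these 19 genes and in 15 of the 16 AP-1 genes, against 63.3% of all coding genes. The part of that in the 15.8% was not tested. Either end of a gene counts here, so such a region need not lie at its start. Klf4 (chr4:55523594-55526841), a factor of goblet and surface cells, had 3248 bp, 8 summits and a fold of 8.90, 296 bp from the gene. Nr4a1 (chr15:101253189-101254839), an orphan nuclear receptor, had 1651 bp and 10.8, and Egr1 (chr18:34864927-34866470), a zinc finger factor, 1544 bp and 10.3.

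Of the 23 inflammation genes, Nfkbiz, an atypical inhibitor of NF-kappa-B induced in epithelium, was the only one with a region reaching within 1000 bp of a gene end, with folds of 6.98 and 6.73 in its 2 regions. Cebpb, a myeloid factor also induced in epithelium, had 2573 bp and a fold of 7.70, 205 bp from the gene. Otx2, a factor of forebrain and eye, had 2580 bp with 10.8, and Pax6, a factor of eye, pancreas and enteroendocrine cells, had folds of 10.1 and 4.81.

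Gene families were looked at after these values were known, so their counts only describe. A wide weak region lay at a boundary of 6 of 39 Hox genes, 4 of 17 T-box genes (Tbx2, Tbx6, Tbx18 and Eomes) and 6 of 44 forkhead genes. A region of any kind lay at a boundary of 37 of the Hox, 10 of the T-box and 34 of the forkhead genes. Over all coding genes that share was 63.3%. A wide weak region lay at a boundary of 1 of 17 Klf genes and of none of the 19 Sox, 6 Gata or 6 Irx genes. Those families are too small for such low counts to be read against the share of all coding genes. Against the 1.29% of all coding genes, it lay at 4 of 397 genes named Zfp, 1.01%. It lay at none of 1110 olfactory receptor genes, of which 22 had a region of any kind there, and at none of 81 ribosomal protein genes, too few to read against that share. Foxl2 had 3193 bp with 7 summits and a fold of 9.62, and Foxd3, a neural crest factor, had 2332 bp with 9.86.

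Chromosome X held few of them. It had 4 of 1633 regions (0.245%; 0.0953 to 0.628), in Tspan7 and Efnb1 and near Upf3b and Thoc2, against 788 of 106773 (0.738%; 0.688 to 0.791) on the 19 autosomes. The folds of the 4 were 9.14, 10.8, 10.6 and 7.22. The sex of the mice is not given in the sources used here. Among autosomes chromosome 11 was the densest with 0.513 regions per Mb and chromosome 1 the sparsest with 0.229. As a share of all regions on the chromosome, these had 0.797% and 0.616%, against 0.738% over the autosomes. By that share the order differed, with chromosome 4 highest at 0.960% and chromosome 16 lowest at 0.582%.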

How the data were processed

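Fos CUT&Tag of scraped colonic mucosa was deposited as 1 list of summits for 4 libraries, with no column per library. The submitters' processing notes name Bowtie2, MACS2 and mm10, without versions or commands. Which libraries entered the list, how they were pooled and how duplicate and multiply mapping reads were treated are not stated there. The deposited score is 10 times the −log10 q-value, cut to an integer. The deposited fold enrichment is a linear ratio. The authors' −log10 p-value and q-value for each summit are those of the caller. All of them served to describe and filter summits of this list alone.

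Each fold was a whole multiple of 0.2405 within 0.05 steps, the step of (pileup + 1) over (background + 1) with a background of 3.16 fragments. A Poisson −log10 p from that pileup matched the deposited one within 0.01 at 100% of 166926 summits. Depth per library is unknown, and intervals (Poisson, Wilson, Newcombe; 95%) cover only counting error, PCR copies of a fragment being dependent.

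Regions are summits with the same start and end. Positions are 1-based. Genes came from a RefSeq table of GRCm38.p6 with 21631 protein-coding genes on 20 chromosomes, without exons. Starts, strands and sequences came from the RefSeq promoter table, 250 bases before to 50 after each start, with an entry for 17274 of those genes. Exons, introns and sequences away from promoters were not analysed here. A boundary is either end of a gene. A region counts as lying at one when its strongest summit is within 1000 bp, and a gene counts as having a region there when any base of the region is within 1000 bp.

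The rule for the regions and the 22 gene lists, with 380 of 381 genes matched, were chosen with earlier results of these data known. Named are the 10 widest regions, the 5 with most summits, the 5 highest folds and 5 just outside, the 10 genes with most regions, and up to 3 genes per list with a region at a boundary. Other genes and the families were named after their values were seen. Some genes the rule names are not reported here. With no value per library, no test was run. The steps were tested on simulated data, where pileups were recovered at 100% of 40790 summits, the rule at 100% of 9000 regions and boundaries at 99.9% of 2666. Computation used Python 3.11.15, NumPy 2.4.6, pandas 2.3.3, SciPy 1.17.1 and statsmodels 0.14.6. Alternatives varied the width, fold and q-value limits, the boundary and neighbour distances and the point that places a region.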

Additional observations from a re-analysis of the deposited data

How the results depend on the processing

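The number of wide weak regions depends on its limits: 215 with a width of at least 2000 bp, 3592 with at least 1000 bp and 1314 with a fold below 15, against 792, while a fold below 10 gave 535 and summits with a −log10 q of at least 5 gave 788. The boundary share of 21.1% became 14.9% within 500 bp, 31.4% within 2000 bp, 31.1% by any base of the region and 24.2% at a width of at least 2000 bp. The difference from narrow weak regions of 13.2 points became 10.1, 17.1, 21.6 and 16.2 under the same settings. The share with a stronger region nearby, 71.2%, became 56.4% within 5 kb, 82.3% within 20 kb and 57.8% for neighbours with a fold of at least 20. Wider distances raise such shares by construction. No result listed here changed direction. For the alternatives chosen after seeing the data, the boundary share was 21.6% with only the widest region of each group within 20 kb, and the difference was 11.7 points with narrow weak regions weighted to the same fold classes. The count of genes with a region at a boundary was 205 with the boundary base inside the region, against 279. No paired analysis was possible because the list has no column per library, and for the same reason no replicate could be left out. At 13 to 48 fragments per strongest summit, counting error alone can move a region across the fold limit.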
